A study of Mus musculus with 6 samples.

Results

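The 10 genes described here are long noncoding genes of the mouse whose read counts in the prostate differed strongly between hormone-treated and control mice. They were selected as noncoding genes with a large and consistent change between the 2 groups, so the measured values given below are those that chose them, and their changes are a description without a test. They are 10 of 8974 genes annotated as long noncoding and of 34745 genes of all kinds in the deposited table. All 10 were found by symbol, none of the symbols occurred on a second row, and 4 were higher and 6 were lower in the treated mice.

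The study sequenced RNA from prostate tissue of male C57BL/6 mice, with 3 mice in each group. The mice were 6 to 8 weeks old at the start. Which lobes were taken is not given in the sources used here. Mice of the T + E2 group carried 1 subcutaneous pellet that released testosterone and estradiol together, replaced each month, for 12 weeks, as a model of benign prostatic hyperplasia. Mice of the CON group had the skin incision and its closure without any pellet. Testosterone, estradiol and the pellet itself can therefore not be told apart. In unsorted tissue fewer cells of a type cannot be told apart from less RNA per cell.

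Long noncoding RNAs are transcripts that are usually spliced and polyadenylated like messenger RNAs but are not known to encode a protein. Those called antisense run across a coding gene on its opposite strand, those called bidirectional start close to a coding gene and run away from it, and those called lincRNAs lie between genes. A few are known to act on the gene beside them or on chromatin, and for most no role is known. Symbols that begin with Gm or end in Rik are provisional names, and no role is given here for any of the 10.

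Sequences are shown for the genes with the largest changes and for 1 that starts beside a coding gene. The RefSeq promoter table, on build GRCm38.p6, held 5 of the 10 genes (Gm16150, 9130019P16Rik, Gm5547, 4930526L06Rik and E330013P04Rik), each as 250 bases before and 50 bases from the start site on. In the 3 promoters printed here the capitals mark the 50 transcribed bases, and the strand is that of the gene. They are Gm16150 at chr1:38219052-38219351 on the plus strand, 4930526L06Rik at chr19:11196567-11196866 on the plus strand, and 9130019P16Rik at chr6:54430172-54430471 on the minus strand. The RefSeq start of Gm16150 lies 16118 bases before the start in the deposited table.
Gm16150 promoter: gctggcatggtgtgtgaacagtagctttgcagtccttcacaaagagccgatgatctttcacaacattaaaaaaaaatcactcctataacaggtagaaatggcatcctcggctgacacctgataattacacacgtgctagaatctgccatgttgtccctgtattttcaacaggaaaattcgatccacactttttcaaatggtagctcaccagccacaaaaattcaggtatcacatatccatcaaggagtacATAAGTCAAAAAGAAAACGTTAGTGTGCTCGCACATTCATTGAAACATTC
4930526L06Rik promoter: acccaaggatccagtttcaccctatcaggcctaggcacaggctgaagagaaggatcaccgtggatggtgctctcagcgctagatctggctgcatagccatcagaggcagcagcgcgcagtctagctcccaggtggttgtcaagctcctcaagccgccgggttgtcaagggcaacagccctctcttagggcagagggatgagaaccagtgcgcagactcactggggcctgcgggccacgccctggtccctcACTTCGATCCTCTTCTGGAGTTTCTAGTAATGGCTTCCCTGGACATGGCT
9130019P16Rik promoter: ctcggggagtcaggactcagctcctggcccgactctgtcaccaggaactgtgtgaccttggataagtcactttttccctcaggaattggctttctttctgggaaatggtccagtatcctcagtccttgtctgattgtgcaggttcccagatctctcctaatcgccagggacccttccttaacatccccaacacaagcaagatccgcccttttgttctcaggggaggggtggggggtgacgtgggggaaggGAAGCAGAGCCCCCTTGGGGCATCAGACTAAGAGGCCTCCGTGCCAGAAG

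For Gm16150, for Gm37223 and for E130307A14Rik the first 200 bases of a spliced GENCODE M21 transcript are shown, 5′ to 3′, without capitals. That of Gm16150 comes from a transcript of 673 bases inside the coding gene Aff3. That of Gm37223 comes from a transcript of 577 bases and belongs to the gene with the most reads per length among the 10 in control mice. That of E130307A14Rik comes from a transcript of 2803 bases and begins on the side that faces the start of Rev3l.
Gm16150 transcript: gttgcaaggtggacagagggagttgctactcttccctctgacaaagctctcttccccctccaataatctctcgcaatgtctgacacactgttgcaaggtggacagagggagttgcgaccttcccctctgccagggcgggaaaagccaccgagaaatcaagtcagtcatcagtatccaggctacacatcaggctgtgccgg
Gm37223 transcript: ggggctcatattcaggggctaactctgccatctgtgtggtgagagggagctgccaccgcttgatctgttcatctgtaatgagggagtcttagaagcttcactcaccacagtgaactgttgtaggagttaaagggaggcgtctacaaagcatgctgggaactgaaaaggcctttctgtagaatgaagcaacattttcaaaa
E130307A14Rik transcript: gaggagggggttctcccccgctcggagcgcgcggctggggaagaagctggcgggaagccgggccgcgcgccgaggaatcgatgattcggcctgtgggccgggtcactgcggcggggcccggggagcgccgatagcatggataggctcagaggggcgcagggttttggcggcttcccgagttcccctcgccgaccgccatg

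The androgen and oestrogen receptors bind DNA as pairs at inverted repeats, and the promoters were searched on both strands for the letters of those repeats. The androgen repeat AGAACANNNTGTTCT and the oestrogen repeat GGTCANNNTGACC were in none of the 5 promoters, and they are rare, in 0.00913% and 0.0700% of the 32851 RefSeq promoters of 300 bases. The single arm AGAACA, a part of the androgen repeat that 19.0% of all promoters hold, was found in 9130019P16Rik alone, on the opposite strand, with its first base at position -39 from the start. The single arm AGGTCA, an oestrogen receptor motif which 16.3% of all promoters hold, was also found in 9130019P16Rik alone, on the opposite strand at position -198. The TATA box letters TATAAA, in 13.6% of all promoters, were in none of the 5. G and C made up 40.3% of the bases of the Gm16150 promoter and 59% of the 4930526L06Rik promoter, against a median of 52.7% over all promoters.

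The 6 libraries held between 14816146 and 16555549 counts, and 15580 genes had enough counts to be tested with edgeR's quasi-likelihood test. A gene is called changed here when its p-value adjusted by Benjamini-Hochberg over all tested genes was under 0.05 and its absolute log2 fold change over 1, and by this rule 1191 genes (7.64%) were called. Seminal vesicle transcripts set CON 2 and T + E2 2 apart, with a sum over 7 marker genes of 10322 and 642.7 CPM (counts scaled to a common library size, with TMM factors) against 0.629 to 4.11 CPM in the other 4 mice. The 8 markers of prostate luminal cells were present in every mouse. They summed to 10300 to 11431 CPM in T + E2 mice against 18591 to 23816 CPM in CON mice. That sum mostly follows Pbsn, which was called lower, from a mean of 14177 CPM in CON to 1445 CPM in T + E2. Msmb was called higher, from 3058 to 6566 CPM, and the other 6 were not called. The sum over 4 urothelial markers was higher, at 1374 to 1700 CPM against 421.8 to 642.1 CPM, with Upk1a and Upk2 called. Of 6 epididymis markers Adam7, the 1 with enough counts to be tested, was called, higher, for a sum of 5.11 to 11.0 CPM against 0 to 1.05 CPM, while Lcn5, Lcn8 and Defb20 were at 0 in every mouse. None of the markers tested of basal cells (4), smooth muscle (4), skeletal muscle (5), fibroblasts (4), endothelium (3), leukocytes (5), adipocytes (3) and seminal vesicle (3 of 7, the others having too few counts to be tested) was called by edgeR. The part of these differences in the values below was not tested.

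**Figure D1:**
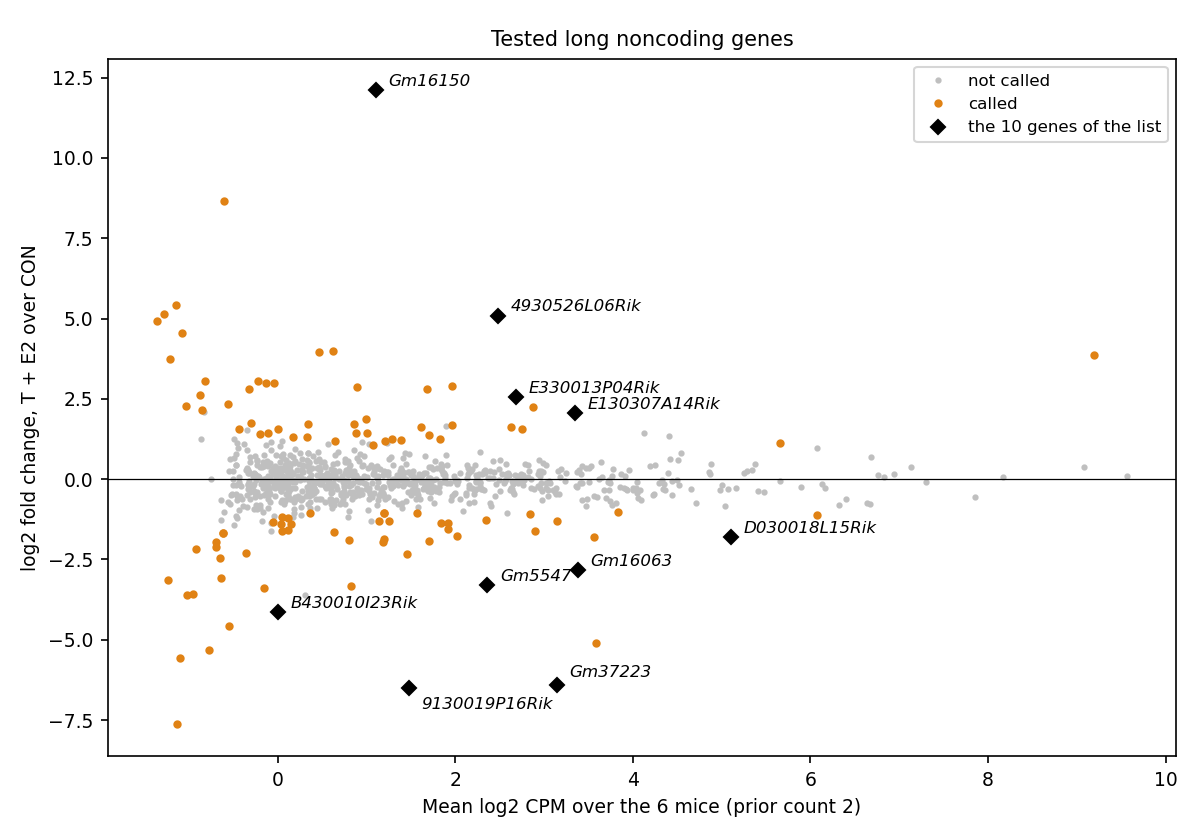
Each point is 1 of the 912 tested long noncoding genes, with its mean log2 CPM over the 6 mice on the horizontal axis and its log2 fold change, T + E2 over CON, on the vertical axis. Called genes are orange and the 10 genes described here are black diamonds, from Gm16150 at 12.10 (a fitted value, no bound) down to 9130019P16Rik at -6.51.

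Few long noncoding genes of the table had enough reads in this tissue to be tested: 5118 of the 8974 had no count in any mouse and 912 passed the filter on low counts, among them all 10 described here. Of the 912, 50 were called higher and 54 lower in the T + E2 group, together 11.4%, against 7.27% of the tested protein-coding genes. Called genes made up 34 of 249 tested lincRNAs, 33 of 257 antisense genes and 19 of 198 genes of the class processed transcript. Long noncoding here means the annotated class alone, which also takes in the class TEC (11 of 144 called). Some genes of these classes carry symbols of protein families. An example is the mucin symbol Muc19, at rank 6 of the 54 that were lower, named after its values were seen. By size of change Gm16150 and 4930526L06Rik stood at ranks 1 and 5 among the 50 that were higher, and 9130019P16Rik and Gm37223 stood at ranks 2 and 3 among the 54 that were lower. The other 6 were at ranks 8 to 27 in their direction, so 94 other long noncoding genes passed the same thresholds and some changed more. In all 10 genes the 3 mice of 1 group lay entirely above the 3 mice of the other, as they did for 40.7% of all tested genes.

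Gm16150 is an antisense gene (chromosome 1, 38235420 to 38246666, plus strand of GRCm38, as for all positions in the table) that lies wholly inside Aff3, a member of a family of nuclear proteins that regulate transcription. It had no count in any of the 3 CON mice and 508, 656 and 477 counts in T + E2 mice 1 to 3. The level went from 0 to 35.6 ± 4.08 CPM (SD, n = 3), with 31.8 to 39.9 CPM in single mice. Taking 3 counts in each CON library as the floor, the T + E2 mean lay at least 183-fold higher. The group with no counts was the whole CON group, so the fitted log2 difference of 12.10 depends on the count that the fit adds and is no bound.

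Aff3 itself was higher in the T + E2 group, in the direction of Gm16150. Its counts were 138, 124 and 114 in CON and 807, 725 and 541 in T + E2, without overlap, and its level rose from 8.15 ± 0.986 to 45.4 ± 9.92 CPM (SD, n = 3), a log2 fold change of 2.48 ± 0.18 (SE; edgeR adjusted p = 9.8e-05). The exons of Gm16150 shared no base with those of Aff3. The sources used here do not say whether reads were counted by strand, and without strand a read from an intron of Aff3 that falls on an exon of Gm16150 cannot be told apart from a read of Gm16150. The source of the Gm16150 reads was not tested. The other opposite-strand genes within Aff3, Gm16151 and Gm16152, had at most 1 count in any mouse. On the flanks Rev1, a DNA repair polymerase, did not pass (log2 fold change -0.25 ± 0.10, SE; edgeR adjusted p = 0.118). Lonrf2, 546978 bases away, was the only neighbour of any of the 10 with an adjusted p under 0.05 that moved against its noncoding gene, at -0.82 ± 0.20 (SE; edgeR adjusted p = 0.0238), short of the fold threshold.

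9130019P16Rik (chromosome 6, 54269681 to 54430221, minus strand) runs over 160541 bases across the start of Wipf3, all of Prr15 and the end of Chn2, and with Gm37223 it showed the largest falls of the 10. It had 340, 283 and 518 counts in CON mice 1 to 3 and 0, 5 and 7 counts in the T + E2 mice. Its level was 24.6 ± 7.21 CPM in CON and 0.257 ± 0.237 CPM in T + E2 (SD, n = 3). The summed counts, 1141 against 12, gave a ratio of 94.3 with a 95% interval of 53.8 to 183.1 that covers counting error only. T + E2 mouse 1 had no count at all, and the CON mice lay between 18.6 and 32.6 CPM. The fitted log2 differences, -6.51 ± 0.49 (SE) here and -6.42 ± 0.31 (SE) for Gm37223, were within their errors of each other, and their order turned without T + E2 mouse 1 (-5.97 against -6.48).

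The 3 coding genes that 9130019P16Rik overlaps all fell with it, each by less than the noncoding gene. Chn2, which encodes a protein that switches off the small GTPase Rac, went from 83.5 ± 14.6 to 10.9 ± 3.81 CPM (SD, n = 3) and fell by 2.94 on the log2 scale (SE 0.24, edgeR adjusted p = 0.000187). Wipf3, a partner of the actin-organising protein N-WASP, went from 31.5 ± 1.58 to 9.41 ± 0.964 CPM and fell by 1.74 (SE 0.12, edgeR adjusted p = 6.6e-05). Prr15, a small proline-rich protein, went from 60.8 ± 7.97 to 24.1 ± 1.09 CPM and fell by 1.33 (SE 0.12, edgeR adjusted p = 0.000242). None of the 3 overlapped between groups. The starts of 9130019P16Rik and Wipf3 lie 618 bases apart on opposite strands, with the gene bodies overlapping there. Exons of the 3 genes covered 552 bases (Chn2), 278 bases (Prr15) and 258 bases (Wipf3) of the noncoding gene, in all 19.5% of its exon bases, so reads there could be of either strand. Scrn1, the next coding gene on the Wipf3 side, was lower by a smaller amount (-0.80 ± 0.18, SE; edgeR adjusted p = 0.0174), and Cpvl on the other side had at most 4 counts in any mouse and was not tested.

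4930526L06Rik (chromosome 19, 11196817 to 11299886, plus strand) starts 80 bases from the start of Ms4a13 and then runs across Ms4a12, Ms4a1 and Ms4a5 on the opposite strand, within the cluster of the MS4A family of membrane-spanning proteins. Its counts were 14, 10 and 19 in CON and 697, 388 and 361 in T + E2. The level went from 0.926 ± 0.269 to 32.0 ± 14.1 CPM (SD, n = 3), 34.5-fold higher, with a fitted log2 difference of 5.09 ± 0.38 (SE). T + E2 mouse 1, at 48.2 CPM, was above the other treated mice at 23.6 and 24.1 CPM, and all 3 were far above every CON mouse. None of its exon bases was shared with another gene. A stretch of 111 bases was 92.8% identical to Platr10, which had no count in any mouse.

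Of the coding genes that overlap 4930526L06Rik or are the nearest on a side, Ms4a5 was called. It had 3125, 1996 and 2453 counts in CON and 9124, 7019 and 5377 in T + E2, and rose from 164.1 ± 38.8 to 472.5 ± 141.7 CPM (SD, n = 3), a log2 fold change of 1.53 ± 0.24 (SE; edgeR adjusted p = 0.00378). Ms4a1, which encodes the B cell antigen CD20, lay between 17 and 63 counts with overlapping groups and did not pass (0.95 ± 0.36, SE; edgeR adjusted p = 0.10). Ms4a14 did not pass either (0.23 ± 0.37, SE; edgeR adjusted p = 0.693). Ms4a12 and Ms4a13 had no count in any mouse, although the start of Ms4a13 is the nearest to that of 4930526L06Rik.

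E130307A14Rik (chromosome 10, 39621412 to 39732007, minus strand) starts 111 bases from the start of Rev3l and runs away from it, across Traf3ip2 on the opposite strand. It had 78, 78 and 72 counts in CON and 290, 335 and 312 in T + E2. The level was 4.94 ± 0.358 CPM in CON and 20.4 ± 0.381 CPM in T + E2 (SD, n = 3), a 4.14-fold difference and 2.05 ± 0.12 (SE) on the log2 scale. The 3 treated mice, at 20.1, 20.4 and 20.8 CPM, were closer together than those of any other of the 10 genes in the T + E2 group relative to their mean (coefficient of variation 1.86%). Counting error alone at 290 to 335 counts is larger than this spread, which therefore does not measure variation between mice.

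Both coding genes at this locus were higher too. Traf3ip2, an adaptor of interleukin receptor signalling, rose from 98.5 ± 1.29 to 215.6 ± 25.6 CPM (SD, n = 3), a log2 fold change of 1.13 ± 0.11 (SE; edgeR adjusted p = 0.000333), and shared 293 exon bases with E130307A14Rik, 4.10% of its exon length. Rev3l, the catalytic subunit of the translesion DNA polymerase zeta, went from 57.9 ± 6.48 to 107.1 ± 6.03 CPM, and its log2 fold change of 0.89 ± 0.11 (SE; edgeR adjusted p = 0.00126) passed on the adjusted p but not on the fold. Fyn, a Src family kinase gene on the far side, did not pass (-0.10 ± 0.13, SE; edgeR adjusted p = 0.611).

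B430010I23Rik (chromosome 8, 41017468 to 41024216, plus strand) is an antisense gene inside Mtus1, which encodes a microtubule-associated protein. It had 40, 46 and 64 counts in CON and 3, 2 and 3 in T + E2, the lowest counts in the high group among the 10. Its level was 3.23 ± 0.711 CPM in CON and 0.177 ± 0.0475 CPM in T + E2 (SD, n = 3). The summed counts, 150 against 8, gave a ratio of 18.6 with a 95% interval of 9.20 to 43.9 for counting error only. The 3 T + E2 mice were at or under 3 counts, so the depth does not separate a low level from none.

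Mtus1, which shared 612 exon bases with B430010I23Rik (18.7% of the exon length of the noncoding gene), was lower by a much smaller amount, from 156.7 ± 17.2 to 110.2 ± 1.75 CPM (SD, n = 3), with a log2 fold change of -0.51 ± 0.10 (SE; edgeR adjusted p = 0.0113) that fell short of the fold threshold. The other opposite-strand genes within Mtus1, Gm16192 and Gm16193, had at most 2 counts in any mouse. Fgl1, a secreted protein of the fibrinogen family, lies 167217 bases away and showed the strongest change of any neighbour. Its counts were 5057, 4386 and 6039 in CON and 426, 598 and 268 in T + E2, and it fell by 3.58 on the log2 scale (SE 0.25, edgeR adjusted p = 8.6e-05). Pdgfrl, between B430010I23Rik and lower coordinates, was at 8 to 21 counts and did not pass (-0.90 ± 0.32, SE; edgeR adjusted p = 0.0815).

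**Figure D2:**
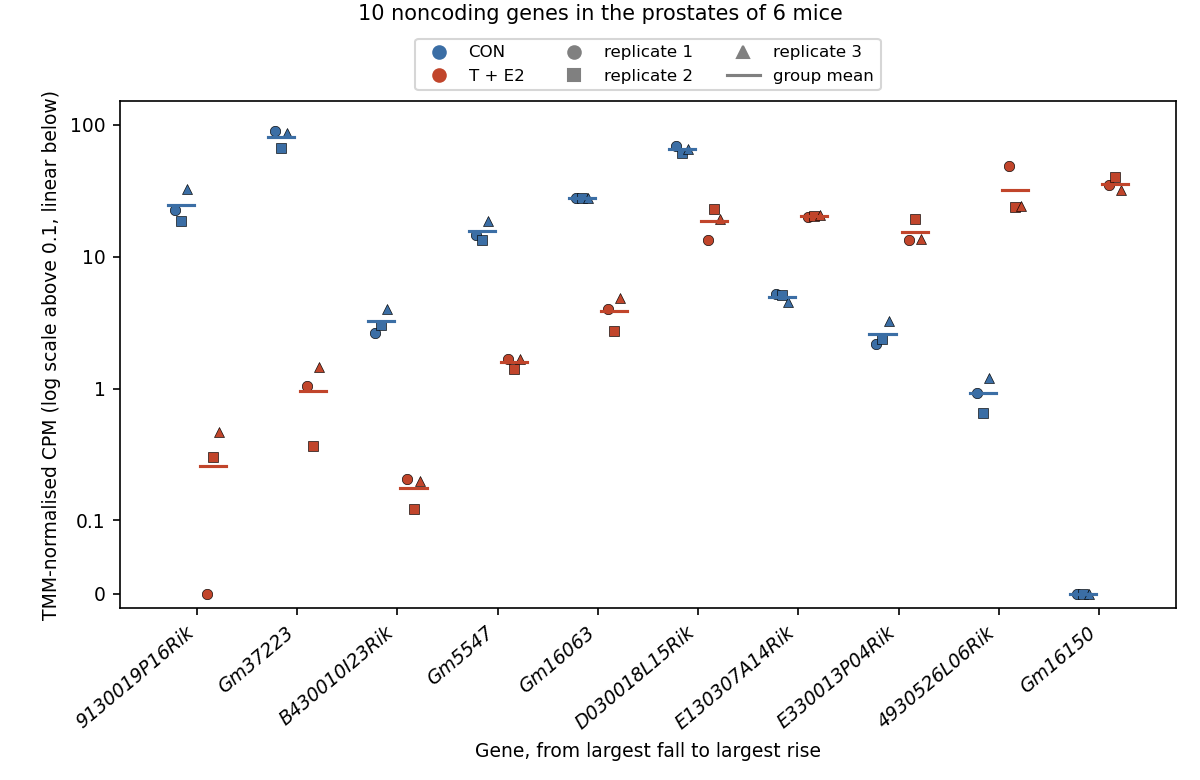
TMM-normalised CPM of the 10 noncoding genes in each mouse (CON blue, T + E2 red, the marker shape gives the replicate number, bars are group means), on an axis that is logarithmic above 0.1 CPM and linear below. The groups do not overlap for any of the 10 genes, and Gm16150 lies at 0 in all 3 CON mice.

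The other 5 genes are lincRNAs that share no exon base with any gene. Gm37223 (chromosome 1, 184358329 to 184394271, plus strand) was the most abundant of the 10 in CON per length. It had 1348, 1018 and 1385 counts in CON and 15, 6 and 22 in T + E2. Its level went from 81.1 ± 12.3 to 0.957 ± 0.556 CPM (SD, n = 3), 84.7-fold lower in the T + E2 group, with a fitted log2 difference of -6.42 ± 0.31 (SE). The control mice lay between 66.9 and 89.3 CPM and the treated mice between 0.365 and 1.47 CPM. The coding genes on its flanks are 282692 and 332868 bases away. Dusp10, a phosphatase of stress-activated MAP kinases, was lower at -0.87 ± 0.16 (SE; edgeR adjusted p = 0.00892), short of the fold threshold, and the homeobox gene Hlx did not pass (-0.35 ± 0.21, SE; edgeR adjusted p = 0.284).

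Gm5547 (chromosome 3, 105815540 to 105817357, plus strand) is the shortest of the 10 in exon length, with 797 bases. Its counts were 220, 204 and 297 in CON and 24, 23 and 25 in T + E2. The level went from 15.5 ± 2.77 to 1.58 ± 0.152 CPM (SD, n = 3), 9.86-fold lower in T + E2, and -3.30 ± 0.20 (SE) on the log2 scale. The treated mice differed from each other by 2 counts at most. Rap1a, a small GTPase gene 14203 bases away on the opposite strand, did not pass (-0.27 ± 0.11, SE; edgeR adjusted p = 0.135), and the adenosine receptor gene Adora3 on the other side had 1 to 13 counts and was not tested.

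Gm16063 (chromosome 5, 119625942 to 119634464, plus strand) lies upstream of Tbx3, a transcription factor of limb and mammary development, on the same strand. It had 418, 420 and 444 counts in CON and 58, 45 and 73 in T + E2. Its level was 27.7 ± 0.164 CPM in CON, the smallest spread of any of the 10 genes in CON relative to the mean (coefficient of variation 0.591%), and 3.87 ± 1.07 CPM in T + E2 (SD, n = 3). Counting error alone at 418 to 444 counts is larger than that CON spread, which therefore does not measure variation between mice. Gm16063 was 7.16-fold lower in T + E2 (-2.84 ± 0.19 on the log2 scale, SE). Tbx3, 36204 bases on, went from 280.7 ± 15.5 to 162.8 ± 18.8 CPM, also lower and without overlap, at -0.79 ± 0.11 (SE; edgeR adjusted p = 0.00225), short of the fold threshold. The noncoding genes Tbx3os1, whose span covers Gm16063 on the opposite strand, and Tbx3os2 were lower by similar amounts to Tbx3, at -0.82 ± 0.18 (SE; edgeR adjusted p = 0.0183) and -0.75 ± 0.12 (SE; edgeR adjusted p = 0.00363). They were named after their values were seen. Med13l, a Mediator subunit gene 860503 bases away, did not pass (0.24 ± 0.13, SE; edgeR adjusted p = 0.239).

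D030018L15Rik (chromosome 15, 96051616 to 96079553, minus strand) changed least of the 10. Its counts were 1041, 925 and 1048 in CON and 192, 379 and 289 in T + E2. Its level went from 65.2 ± 4.12 to 18.5 ± 4.94 CPM (SD, n = 3), 3.52-fold lower in T + E2 and -1.81 ± 0.18 (SE) on the log2 scale. RefSeq lists it as a transcribed pseudogene, and 543 bases of it were 93.6% identical to Ncoa2, a coactivator of nuclear receptors, a match that covers 18.7% of a transcript, so some reads could belong to either gene. Ncoa2 had 897 to 1096 counts in CON and 993 to 1169 in T + E2. The coding genes on its flanks did not pass: Ano6, a lipid scramblase gene, was at -0.10 ± 0.09 (SE; edgeR adjusted p = 0.457) and Arid2, a chromatin remodelling subunit gene, at 0.04 ± 0.13 (SE; edgeR adjusted p = 0.842).

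E330013P04Rik (chromosome 19, 60144675 to 60162591, plus strand) is the lincRNA of the 5 that was higher in the T + E2 group. It had 33, 36 and 52 counts in CON and 193, 317 and 205 in T + E2. The level went from 2.61 ± 0.581 to 15.4 ± 3.34 CPM (SD, n = 3), 5.92-fold higher and 2.56 ± 0.23 (SE) on the log2 scale. Rab11fip2, a gene of endosome recycling 201020 bases away, was higher by a smaller amount, from 23.9 ± 1.34 to 37.7 ± 0.795 CPM, at 0.66 ± 0.09 (SE; edgeR adjusted p = 0.00187), and Fam204a on the other side did not pass (0.14 ± 0.11, SE; edgeR adjusted p = 0.407).

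**Figure D3:**
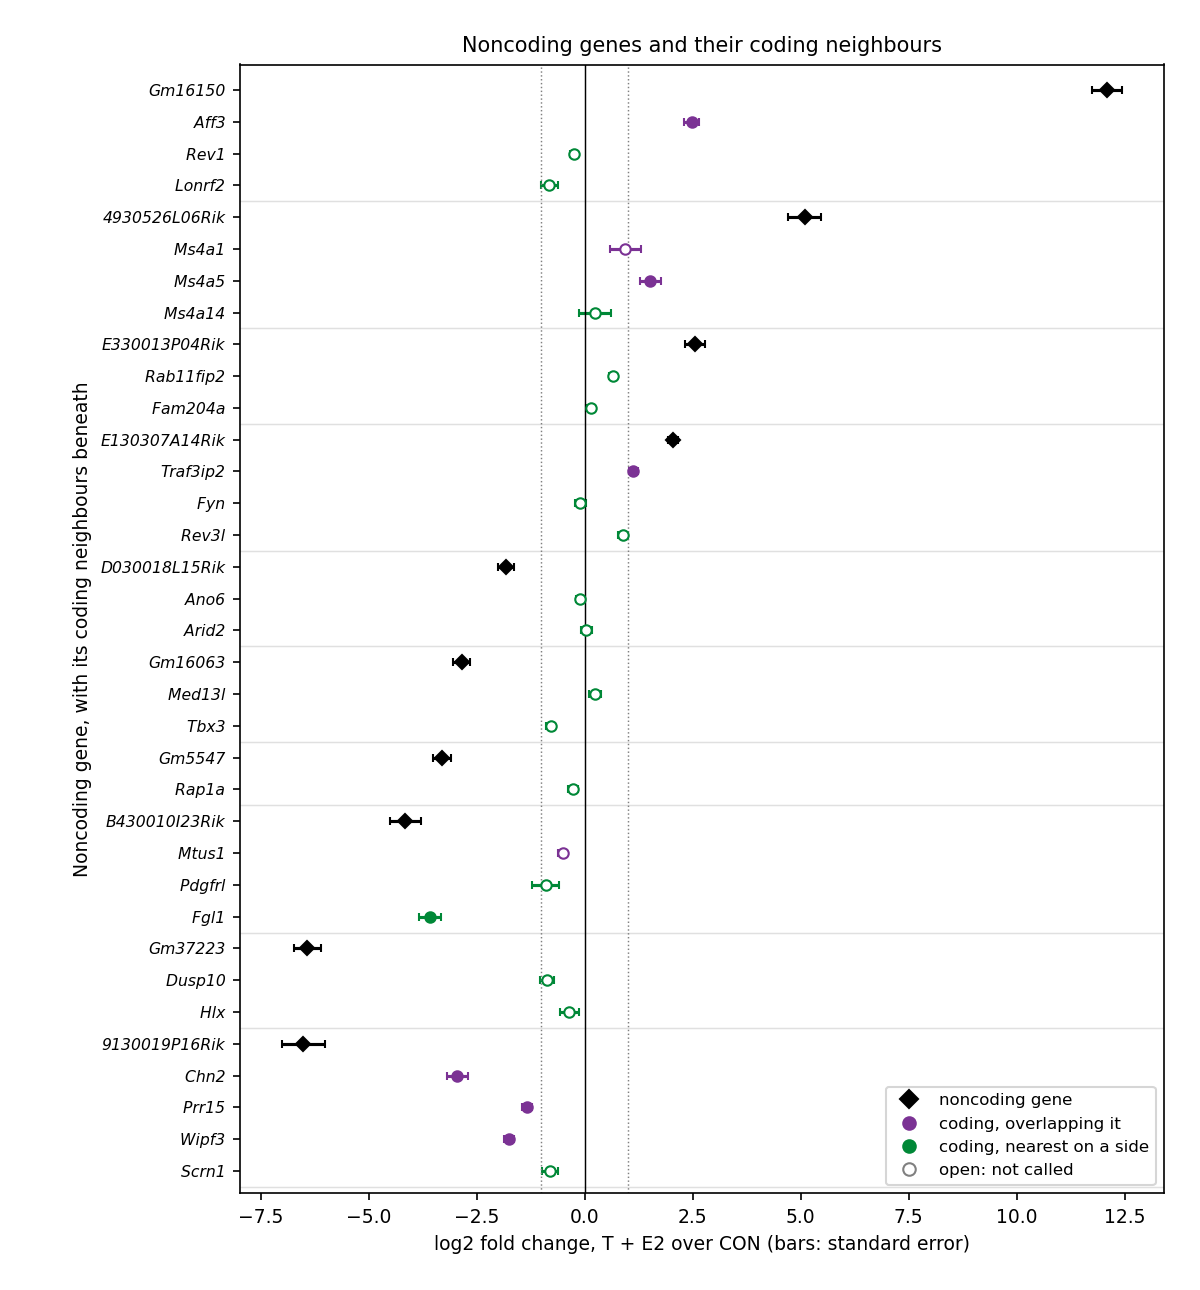
Log2 fold change, T + E2 over CON, of each noncoding gene (black diamond) and of its tested coding neighbours beneath it (purple where their span overlaps it, green where they are the nearest on a side, open where not called), with standard errors as bars. The 7 called neighbours (Aff3, Ms4a5, Traf3ip2, Fgl1, Chn2, Prr15 and Wipf3) lie on the same side of 0 as their noncoding gene.

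Over all 10 loci, the coding genes that overlap a noncoding gene or are the nearest on either side numbered 29, of which 25 had enough counts to be tested. These were chosen by position and not by their values. Of the 25, 7 were called (28%), against 7.27% of all tested coding genes, 3 higher and 4 lower, and all 7 moved in the direction of their noncoding gene. The 7 lay at 5 of the 10 loci. Of the neighbours that overlap, 6 of 8 tested were called, and of those on the flanks, 1 of 17, Fgl1. On the adjusted p alone 14 of the 25 passed, against 20.1% of all tested coding genes, 13 of them in the direction of their noncoding gene, and by sign of the fitted change 20 of 25 did. The median absolute log2 fold change was 0.80 over the 25 neighbours and 0.25 over all tested coding genes. Of the 7 called, Chn2, Prr15, Wipf3 and Traf3ip2 share exon bases with the noncoding gene and Aff3, Ms4a5 and Fgl1 do not. Aff3 and Ms4a5 still overlap it in span. If strand was not used, reads from an intron of one gene could there be counted for the other. Whether neighbours differ from other coding genes was not tested, since the loci were chosen on this comparison and neighbours of 1 locus are not independent.

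Counted by distance, 118 coding genes had a base within 500 kb of 1 of the 10 genes and 77 were tested, of which 13 (16.9%) were called, 12 in the direction of the noncoding gene. Without the genes that overlap, 7 of 69 were called, 10.1% against the 7.27% of all tested coding genes. Beside the neighbours above these were 4 more genes of the Ms4a cluster near 4930526L06Rik, namely Ms4a6b, Ms4a6c, Ms4a6d and Ms4a8a. They rose by 1.36 to 1.57 on the log2 scale with edgeR adjusted p from 0.0162 to 0.0283, from low levels of 1.38 to 4.31 CPM in CON. The predicted gene 1700056E22Rik near Gm37223 fell by 1.46 (SE 0.37, edgeR adjusted p = 0.0292). Slc16a10, an aromatic amino acid transporter gene 301527 bases from E130307A14Rik, was the exception in direction, and fell by 1.42 (SE 0.17, edgeR adjusted p = 0.000999) where the noncoding gene was higher. Without CON 2 and T + E2 2 the count within 500 kb was 8 in place of 13.

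**Figure D4:**
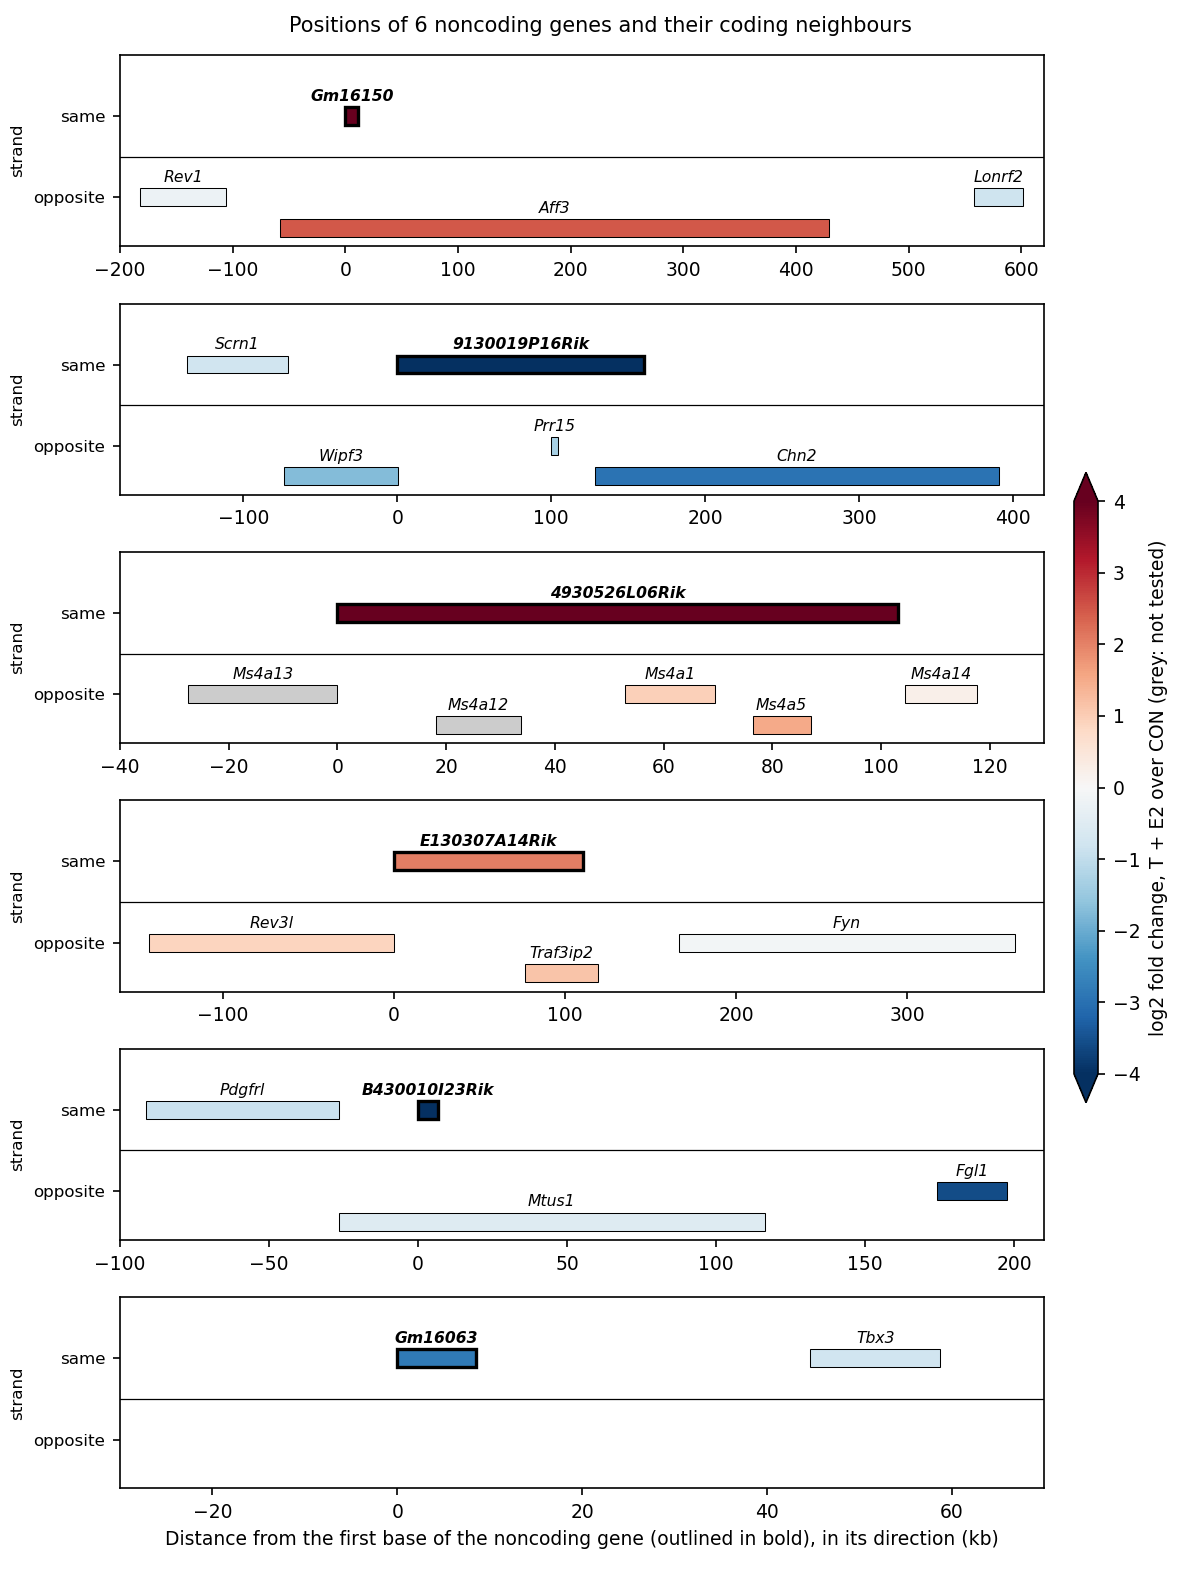
Spans of 6 of the noncoding genes (bold outline) and of their coding neighbours, in kb from the first base of the noncoding gene in its direction of transcription, the same strand above and the opposite strand below the line. The colour gives the log2 fold change, T + E2 over CON, limited to 4 on either side, and grey marks genes that were not tested. The 6 loci are the 5 with a called neighbour and that of Gm16063, and the loci not drawn have no called neighbour. Red noncoding genes lie over red neighbours such as Aff3, Ms4a5 and Traf3ip2, and blue ones over blue neighbours such as Chn2, Prr15 and Wipf3. Among the neighbours drawn, Rev1 (-0.25) and Lonrf2 (-0.82) beside Gm16150 and Fyn (-0.10) beside E130307A14Rik are of opposite sign to their noncoding gene. Med13l (0.24), of opposite sign to Gm16063, and Cpvl, not tested, lie outside the stretches drawn.

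Another 25 noncoding genes overlap 1 of the 10 genes or a coding gene that does, or lie within 100 kb, and their values were looked at after the data were seen. Of these, 8 had enough counts to be tested and 1 was called. Gm15527, which overlaps 9130019P16Rik on the same strand within Chn2, had 43, 22 and 40 counts in CON and 3, 1 and 0 in T + E2, and fell by 4.57 on the log2 scale (SE 0.64, edgeR adjusted p = 0.00236). Gm16365, opposite to Traf3ip2, had 149, 140 and 33 counts in T + E2 against 27, 44 and 32 in CON and did not pass (1.65 ± 0.52, SE; edgeR adjusted p = 0.0593). Of the 7 opposite-strand noncoding genes that lie inside the overlapped coding genes but not over the 10, 5 had at most 3 counts in every mouse.

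Read per kilobase of merged exons, the order of the 10 genes differed between the groups. In CON mice the mean level was highest for Gm37223, at 70.3 CPM per kb, followed by Gm5547 at 19.5, Gm16063 at 16.3, D030018L15Rik at 14.8 and 9130019P16Rik at 4.41 CPM per kb. The other 5 were under 1 CPM per kb in CON, from B430010I23Rik at 0.988 to Gm16150 at 0. In T + E2 mice Gm16150 was highest, at 39.1 CPM per kb, followed by 4930526L06Rik at 31.3. D030018L15Rik, E330013P04Rik, E130307A14Rik, Gm16063 and Gm5547 lay between 1.98 and 4.21 CPM per kb, and Gm37223 at 0.830, B430010I23Rik at 0.0540 and 9130019P16Rik at 0.0462 CPM per kb.

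Leaving out CON 2 and T + E2 2, the mice with seminal vesicle transcripts, turned no direction. The log2 differences of the genes that were higher were then 11.98 for Gm16150, 5.08 for 4930526L06Rik, 2.30 for E330013P04Rik and 2.08 for E130307A14Rik. For the genes that were lower they were -6.81 for 9130019P16Rik, -6.12 for Gm37223, -3.98 for B430010I23Rik, -3.31 for Gm5547, -2.64 for Gm16063 and -2.05 for D030018L15Rik. All 10 remained past the thresholds without them, as did 7 neighbours, while the number of called long noncoding genes was 57 in place of 104.

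For each of the 10 genes the tested coding genes with the most similar log2 CPM over the 6 mice were found, as a description only, since any gene that differs between the groups is similar: 304 to 725 of 14225 coding genes had a Pearson r over 0.95 with a given noncoding gene. Among the genes that were higher, Gm16150 was most like Wfdc8 and Qpct, 4930526L06Rik like Stat5a and Zmat3, E130307A14Rik like C77370 and Entpd5, and E330013P04Rik like Chpt1 and Rpl22. Among those that were lower, Gm37223 and Gm16063 were both most like C1rb and Actn4, Gm5547 like Tmod4 and Pgm2l1, B430010I23Rik like Gdf15 and Tmod4, 9130019P16Rik like Fzd10 and Dock3, and D030018L15Rik like Dpysl2 and Adap1. The mice of a group share treatment, so these 6 points form 2 clusters.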

How the data were processed

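RNA-seq of prostates from 3 CON and 3 T + E2 mice was analysed from 1 deposited table of 34745 genes. The authors deposited whole-number read counts per gene, without normalization, and FPKM values made from them. The gene length implied by counts and FPKM equalled the merged exon length for Gm16063 and 4930526L06Rik, which have 1 transcript each. For the others of the 10 genes it was longer, such as 1979 against 1153 bases for Gm37223. How that length was made was not tested. The submitters' processing notes name TopHat, Bowtie2 and HTSeq without roles, and whether counting used the strand is not given in the sources used here. Groups and replicate numbers came from the sample labels. Totals were 14816146 to 16555549 counts, and 3 counts, the floor used here, correspond to 0.183 to 0.208 CPM.

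Genes with about 10 counts in 3 samples and 15 in total (filterByExpr) were fitted with edgeR 4.0.16 (R 4.3.3, TMM, glmQLFit and glmQLFTest, 15580 genes, biological coefficient of variation 17.96%), and p-values were adjusted by Benjamini-Hochberg over all of them. Genes were called at an adjusted p under 0.05 with a log2 change over 1 in either direction, the thresholds of the study's methods. Error bars are the SD over mice or an SE, and intervals cover counting error only. The SE was not read from the fit. It was calculated as the absolute fitted log2 change divided by the square root of the test's F statistic. Alternatives used DESeq2 1.42.0, limma 3.58.1 on log2(FPKM + 0.1) and log2(FPKM + 1), other filters, scalings and windows, and left out mice. The scripts were tested on simulated data. Biotypes, spans and exons came from the table and GENCODE M21, and transcript similarity from BLAST 2.17.0+ (at least 90% identity over 100 bases).

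The 10 genes and the marker lists were chosen with earlier results of these data known. The result of 1 marker list is not reported here. Genes were named by rule: the 10 genes, every coding gene that overlaps 1 or is nearest on a side, called coding genes within 500 kb, and for each of the 10 the 2 coding genes with the highest Pearson r of log2 CPM (prior count 2). The marker genes named were called or had no count in any mouse, and they were named after their values were seen. Ncoa2 and Platr10 were named as the longest matches in the search for similar transcripts. Other genes were named after their values were seen, and the text says so.

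Replicate numbers are only names here, since the mice are separate animals, and no block was used for that reason. Deviations of same-numbered mice from their group means correlated at -0.052, 0.028 and 0.046. Those of differently numbered mice correlated at -0.182 to 0.137.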

Additional observations from a re-analysis of the deposited data

How the results depend on the processing

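All 10 genes passed the thresholds in every setting but 2, with 9 of 10 after a filter on FPKM (1 or more in 3 samples) and 8 of 10 with limma on log2(FPKM + 1), which shrinks low values. The 10 were chosen for this contrast in the same mice, so these counts describe the list and test nothing. In the main fit 7.64% of all tested genes were called. No called direction was reversed in 149 refitted values of the 10 genes or in 371 of their coding neighbours. Of the 149, 14 moved by more than 1 SD, namely Gm16150 with DESeq2 (11.54) and 13 with limma on FPKM. The 7 called neighbours became 14 without the fold threshold, and 7 to 8 when 1 mouse was left out, where Ms4a1 passed without CON 1 (1.31). The 13 called coding genes within 500 kb became 26 without the fold threshold, 8 with limma on log2(FPKM + 1), 6 within 100 kb, 9 to 13 when 1 mouse was left out, and 8 without both CON 2 and T + E2 2, a setting added after the data were seen. The 104 called long noncoding genes became 146 with limma on log2(FPKM + 0.1), 140 without the fold threshold, 129 without a filter on low counts, 67 after the FPKM filter, 34 with limma on log2(FPKM + 1), 57 without both CON 2 and T + E2 2, and 69 to 94 when 1 mouse was left out, the lowest without CON 3. The cause of these shifts was not tested.

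With the replicate number as a block, 7 neighbours, 12 coding genes within 500 kb, 77 long noncoding genes and all 10 genes were called. The numbers do not pair the mice.

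Depth limits the lowest values: 3 counts in a library correspond to about 0.2 CPM, so the level of B430010I23Rik in T + E2 and of Gm16150 in CON is known only as low. The level of 9130019P16Rik in T + E2, from 0, 5 and 7 counts, is also near this floor. The spread comes from 3 mice a group.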
